A study of Oryza sativa Indica Group with 10 samples.

Results

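Genes named for phosphate and nitrogen transport and sensing were followed in rice seedlings whose OsbZIP48 level had been altered. OsbZIP48 is a bZIP transcription factor gene of the HY5 type, and HY5 drives light-dependent development. A gene was taken where its symbol or a synonym was PHT, PT, PHO1, SPX, SPX-MFS, AMT, NRT or NAR followed by a number. Of 38 such genes, 30 had a probe set paired with 1 gene, out of 17905 genes measured. They were 9 PHT1 phosphate transporters, 2 PHO1 phosphate exporters, 5 SPX sensors, 8 AMT ammonium transporters, 3 genes of the nitrate transport families NRT and NAR, and 3 others. Of these 3, GRF4 (a growth-regulating transcription factor with the synonym PT2) and HCT3 (an acyltransferase with the synonym PHT1) only share a name, and the symbol PHT3 may stand for a transporter or an acyltransferase. Levels were measured on 10 one-colour Affymetrix arrays, 2 biological replicates for each of 5 groups of the Indica cultivar Pusa Basmati 1. OE seedlings over-expressed OsbZIP48 and were set against seedlings with the empty vector B4NU. Lethal KD seedlings were OsbZIP48 knock-downs (KD) with a lethal phenotype and wild-type-like KD seedlings were knock-downs that looked like wild type. Both were set against seedlings with the empty vector pANDA, which is made for RNA interference. Every group carried a transgene vector, and no untransformed group was analysed here. The promoters, the number of independent lines and the number of seedlings per sample are not given in the sources used here, nor is the vector that belongs to each transgene. Seedlings grew in light at 28 °C on diluted Murashige and Skoog basal medium. The age is 10 days in the labels and 7 days in the design text, and the tissue label is whole seedling where the extraction protocol names roots.

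Plants take up phosphate through PHT1 proton symporters of the plasma membrane and load it into the xylem through PHO1 proteins. SPX proteins sense inositol pyrophosphates, a sign of phosphate supply, and hold back PHR transcription factors while phosphate is plentiful. Ammonium, the main nitrogen form in flooded paddies, enters through AMT proteins, and nitrate through NRT proteins, of which the NRT2 members need a NAR2 partner. HY5 of Arabidopsis, the relative of OsbZIP48, is known to move to roots and to activate the nitrate transporter gene NRT2.1 there.

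Both root and shoot genes were measured on the arrays. The floor is the band within 0.5 (log2) of the lowest value of a set of arrays, and it held 65.6 to 68.8% of the values on an array. A group is called at the floor where both of its arrays lie there. Of 13 root markers, 3 were at the floor in OE, 4 in B4NU, 8 in lethal KD, 5 in wild-type-like KD and 6 in pANDA, and of 14 shoot markers 1 was at the floor in pANDA and 2 in each other group. The OE and B4NU arrays shared 1 lowest value and the KD and pANDA arrays another, so these sets were taken as normalized separately, and groups were tested only within a set. Replicates correlated across probe sets at 0.950 in OE, 0.981 in lethal KD and 0.993 or more in the other groups. OE replicate 1 and lethal KD replicate 2 stood apart, with a 3′ minus 5′ or middle control signal of -0.16 and 0.37 against 0.91 to 1.85 on the other arrays. The number of arrays limits the precision. OsbZIP48 itself had no probe set in the annotation, so the labels were not checked against its level.

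Of the 30 genes, 17 were above the floor in at least 1 group and 11 in all 5. The transporters PHT1-3, PHT1-6, PHT1-7, PHT1-11 and PHT1-12, the exporter PHO1-3 and the sensors SPX3 and SPX5 were at the floor in all 5 groups. So were the ammonium transporters AMT2-2, AMT3-1 and AMT3-3 and the nitrate transporters NRT2.2 and NRT2.3. These 13 genes cannot be told from background here, and a fall in any of them would not be seen. Of those above the floor, 15 were so in OE, 15 in B4NU, 12 in lethal KD, 14 in wild-type-like KD and 14 in pANDA. Another 8 genes with such names had no probe set in the annotation and were not analysed here, among them PHO1-1, NRT2.1, NAR2.1 and SPX6.

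**Figure D1:**
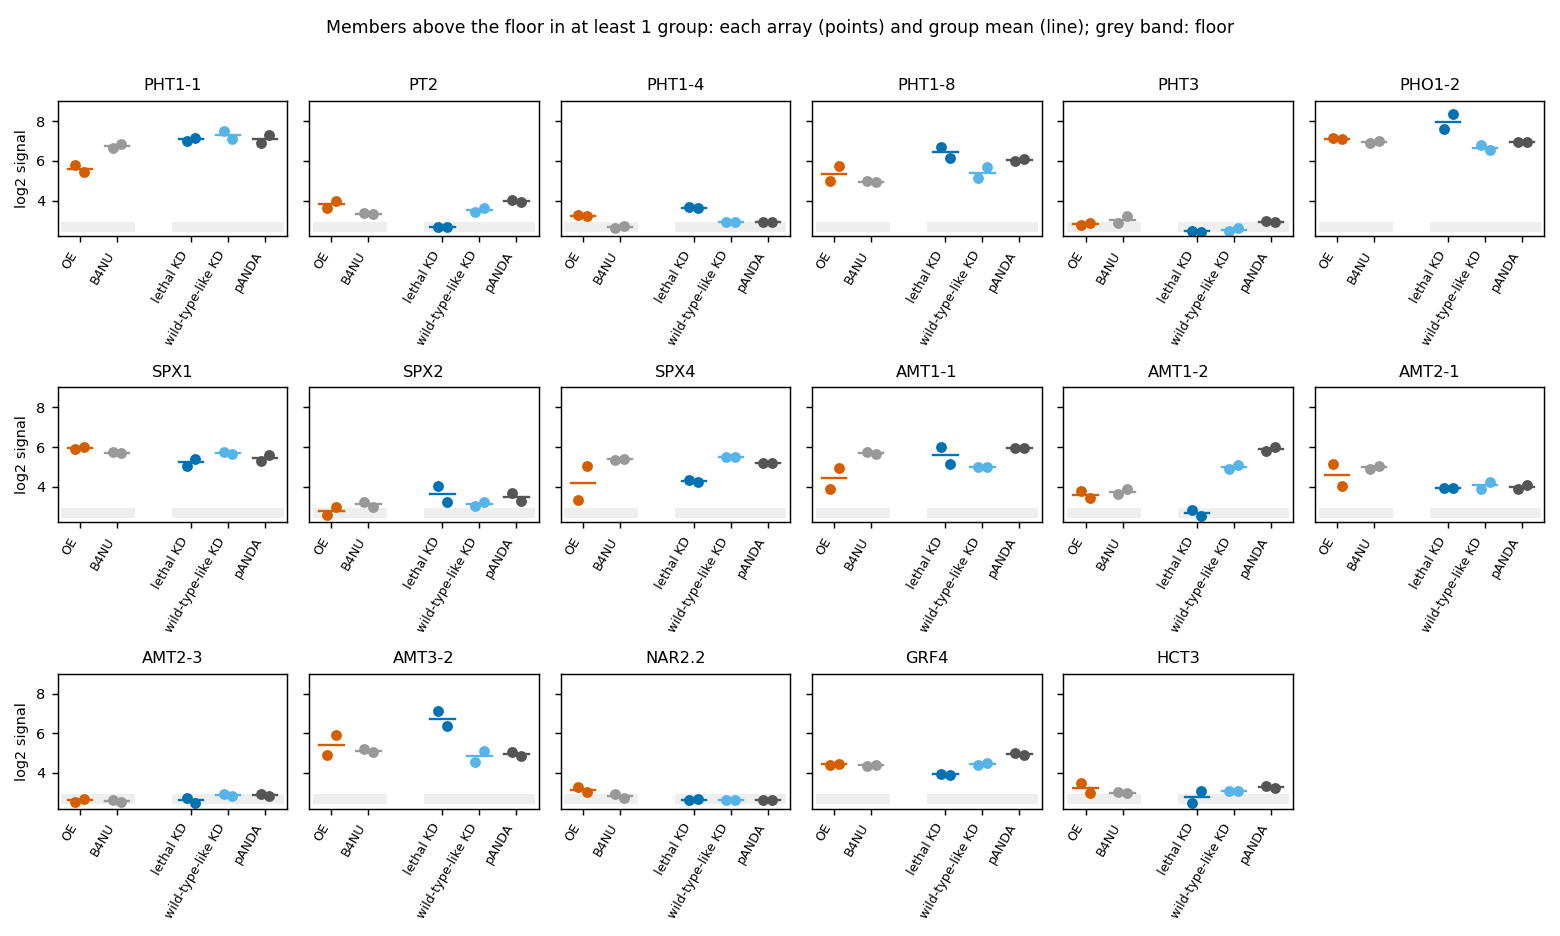
Log2 signal (vertical axis) of the 17 genes above the floor in at least 1 group, by group (horizontal axis), with a point for each array, a line at the group mean and a grey band for the floor. AMT1-2 and PT2 lie in the band on both lethal KD arrays and above it on the other KD and pANDA arrays, and the groups left and right of the gap come from separately normalized sets.

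In the lethal knock-down, the ammonium transporter gene AMT1-2 and the phosphate transporter gene PT2 fell to the floor, GRF4 fell, and the phosphate transporter gene PHT1-4 and the phosphate exporter gene PHO1-2 rose, all relative to pANDA. These were 5 of the 30 genes (16.7%; adjusted p under 0.05 with limma), 2 of them higher and 3 lower. Of all 17905 genes 26.2% were called in this comparison, 14.5% higher and 11.7% lower. The share among the 30 genes taken by name, GRF4 included, was thus not above that of all genes. In the wild-type-like knock-down 1 of 30 was called against pANDA, GRF4, which was lower, where 0.363% of all genes were called, 0.134% higher and 0.229% lower. Lethal KD differed from wild-type-like KD in 6 of 30 genes (20.0%), namely the 5 above in the same direction and the ammonium transporter gene AMT3-2, which was higher. The background there was 23.8% of all genes, 13.6% higher and 10.2% lower. In OE 1 of 30 was called against B4NU, PHT1-4, which was higher, where 2.88% of all genes were called, 0.542% higher and 2.33% lower. The median difference of the 30 genes was -0.04 in lethal KD, -0.02 in wild-type-like KD and 0.0 in OE (log2), beside 0.018, -0.002 and -0.053 over all genes. Both knock-down comparisons share the pANDA arrays. The counts moved with single arrays. The shares beside the counts that follow are of all probe sets and not of genes. With all arrays 12.2% of probe sets were called in lethal KD against pANDA, below the 26.2% of genes. In OE 3 genes were called without OE replicate 1 and 8 without OE replicate 2, where 4.62% and 22.3% of all probe sets were called. Without OE replicate 1 and lethal KD replicate 2 together, 5 genes were called in OE, 10 in lethal KD and 2 in wild-type-like KD against their vectors, and 10 between the knock-downs, beside 6.99, 22.0, 0.402 and 21.6% of all probe sets. In wild-type-like KD 2 and 3 genes were called without pANDA replicates 1 and 2, where 2.15 and 1.72% of all probe sets were called, and 0 without any single B4NU or lethal KD array, where 0.117 and 0.227% were. Between the knock-downs 3 were called without wild-type-like KD replicate 2, beside 9.98% of all probe sets.

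**Figure D2:**
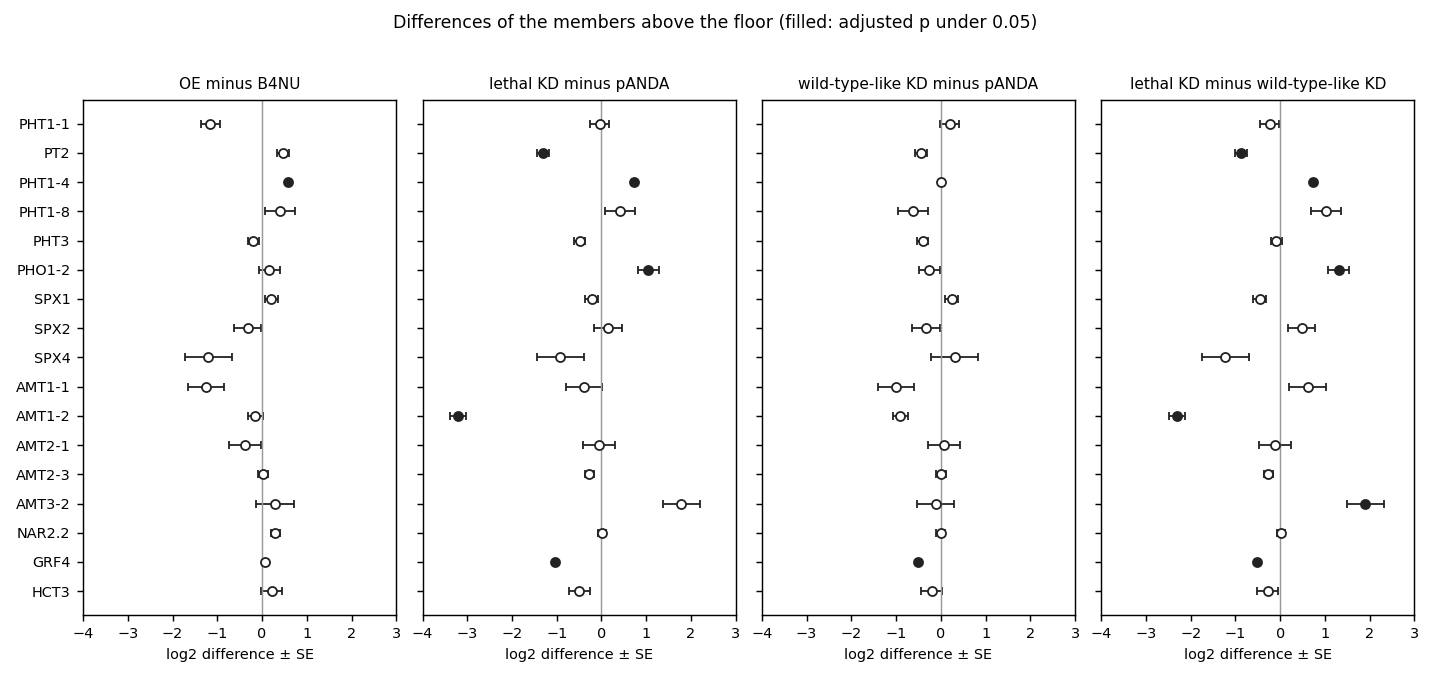
Log2 difference with its standard error (horizontal axis) of the 17 genes above the floor in at least 1 group (vertical axis), in 4 comparisons, with filled points where limma's adjusted p was under 0.05. AMT1-2 has a difference of -3.21 in lethal KD minus pANDA and -2.31 in lethal KD minus wild-type-like KD, and the panel of wild-type-like KD minus pANDA holds 1 filled point, GRF4 at -0.50.

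Among the PHT1 transporters, PT2 (LOC4331637), also known as OsPht1;2, is a low-affinity phosphate transporter that moves phosphate from root to shoot. It stood at 2.67 and 2.67 (log2 signal) in lethal KD, at 3.43 and 3.65 in wild-type-like KD and at 4.03 and 3.92 in pANDA. The lethal KD arrays were at the floor and below every array of the other knock-down and of the vector. Lethal KD was at least 2.05-fold lower than pANDA (log2 difference -1.31 ± 0.13 SE, adjusted p = 0.003427) and at least 1.51-fold lower than wild-type-like KD (-0.87 ± 0.13, adjusted p = 0.01415). The second call was lost without lethal KD replicate 1 or 2 or wild-type-like KD replicate 2. It was also lost in a fit of the 4 arrays of both knock-downs (adjusted p = 0.1112). Wild-type-like KD differed from pANDA by -0.43 ± 0.13, which was not called (adjusted p = 0.6926). OE stood at 3.64 and 4.0 against 3.39 and 3.30 in B4NU, a difference of 0.48 ± 0.13 that was not called (adjusted p = 0.2896).

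PHT1-4 (LOC4335115), a phosphate transporter gene of roots and embryos, was the only one of the 30 called in both OE and lethal KD, and it was higher in both. OE arrays stood at 3.26 and 3.22, against 2.60 and 2.70 in B4NU, which was at the floor. Lethal KD arrays stood at 3.66 and 3.63, against 2.92 and 2.92 in wild-type-like KD and 2.92 and 2.92 in pANDA, both at the floor. The groups did not overlap in either comparison. OE was at least 1.23-fold higher than B4NU (log2 difference 0.59 ± 0.04 SE, adjusted p = 0.004108), and lethal KD at least 1.63-fold higher than pANDA (0.73 ± 0.04, adjusted p = 0.0003154) and than wild-type-like KD (0.73 ± 0.04, adjusted p = 0.0003486). These levels lie close to the floor, and the type of its probe set may share probes with related sequences. The pANDA and wild-type-like KD arrays at the floor barely varied (SD 0.0 and 0.001). They enter the spread used in all these comparisons, so the SEs may understate the variation between replicates. The OE call was lost in a fit of the 4 OE and B4NU arrays alone (adjusted p = 0.3232), with array weights (adjusted p = 0.3298) and with quantile normalization (adjusted p = 0.09706). The calls in lethal KD against pANDA and against wild-type-like KD were lost with each array centred (adjusted p = 0.05965 and 0.05992).

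PHT1-1 (LOC4331635), a transporter that takes up phosphate also when it is plentiful, showed another pattern, lower in OE without passing the test. OE arrays stood at 5.77 and 5.44, against 6.67 and 6.85 in B4NU, and did not overlap them, with a difference of -1.16 ± 0.21 (adjusted p = 0.09575). Lethal KD stood at 7.0 and 7.16, wild-type-like KD at 7.52 and 7.12 and pANDA at 6.92 and 7.32, so the groups of this set overlapped. The second probe set of PHT1-1 differed by -0.06 ± 0.15 in OE and by -0.50 ± 0.15 in lethal KD (adjusted p = 1.0 and 0.1033), so the probe sets do not give the same picture. PHT1-8 (LOC4348741), a high-affinity transporter, stood at 6.72 and 6.15 in lethal KD, 5.14 and 5.68 in wild-type-like KD and 5.98 and 6.08 in pANDA. It was not called in any of the 4 comparisons, and the difference of lethal KD from wild-type-like KD was 1.03 ± 0.33 (adjusted p = 0.1511). OE stood at 4.97 and 5.74 for this gene, against 4.97 and 4.94 in B4NU. In the RefSeq gene order PHT1-12, PHT1-1 and PT2 are direct neighbours, and so are PHT1-3 and PHT1-8. Within these runs PT2 fell in lethal KD while PHT1-1 was not called and PHT1-12 and PHT1-3 were at the floor.

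PHO1-2 (LOC4331090) encodes the exporter that loads phosphate into the xylem in rice. It stood at 7.61 and 8.35 in lethal KD, 6.79 and 6.55 in wild-type-like KD and 6.94 and 6.93 in pANDA, and both lethal KD arrays lay above every array of the other groups of the set. It rose 2.07-fold in lethal KD relative to pANDA (log2 difference 1.05 ± 0.24 SE, adjusted p = 0.04574) and 2.48-fold relative to wild-type-like KD (1.31 ± 0.24, adjusted p = 0.02348). OE was at 7.13 and 7.11 and B4NU at 6.92 and 6.99, a difference of 0.16 ± 0.24 that was not called (adjusted p = 0.9622). The other 2 probe sets of PHO1-2 differed by -0.03 ± 0.10 and 0.01 ± 0.01 between lethal KD and pANDA and were not called. The rise against pANDA was near the threshold and was lost without any single OE, B4NU, wild-type-like KD or pANDA array (adjusted p = 0.07042 to 0.173), and without both arrays that stood apart it was 0.68 (adjusted p = 0.03568). The rise against wild-type-like KD was lost without any single B4NU, wild-type-like KD or pANDA array (adjusted p = 0.05795 to 0.1055), with quantile normalization (adjusted p = 0.05105) and in a fit of the 4 arrays of both groups (adjusted p = 0.3016).

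Of the SPX sensors, SPX1 (LOC4341465) and SPX2 (LOC4328654) are nuclear inhibitors of the phosphate regulator PHR2 in rice, and neither was called in any comparison. SPX1 stood at 5.05 and 5.41 in lethal KD, 5.73 and 5.65 in wild-type-like KD and 5.30 and 5.59 in pANDA. OE lay at 5.89 and 5.98 for SPX1, against 5.75 and 5.70 in B4NU, and the largest of its 4 differences was -0.46 ± 0.15 between lethal KD and wild-type-like KD (adjusted p = 0.1414). SPX2 ranged from 2.60 to 4.03 over the 10 arrays, and its 4 differences were at most 0.48 in size (log2), the largest between lethal KD and wild-type-like KD (adjusted p = 0.5058). The second probe set of SPX5 was at the floor on every array. It was still called higher in lethal KD than in pANDA (0.21 ± 0.04, adjusted p = 0.02429) and wild-type-like KD (0.20 ± 0.04, adjusted p = 0.02885).

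SPX4 (LOC4334647) encodes a sensor that holds PHR2 out of the nucleus in rice and also joins nitrate to phosphate signalling. The OE arrays disagreed, at 3.32 and 5.05, and both lay below B4NU at 5.37 and 5.40. The difference of -1.20 ± 0.52 was not called (adjusted p = 0.6442). Lethal KD stood at 4.33 and 4.25, wild-type-like KD at 5.52 and 5.50 and pANDA at 5.21 and 5.21, so both lethal KD arrays lay below the other arrays of their set. With OE in the fit lethal KD was not called against pANDA (-0.92 ± 0.52, adjusted p = 0.4973). Without either OE array the same difference was called (adjusted p = 0.000273), and so was that from wild-type-like KD (-1.22, adjusted p = 0.0001695). OE itself then differed from B4NU by -0.34 without OE replicate 1 and by -2.07 without OE replicate 2. Each of these fits keeps a single OE array, so the spread between the OE arrays does not enter it. The probe set used for SPX4 is of the type that may share probes with related sequences. The second probe set of SPX4 differed by -0.12 ± 0.19 in OE and by -0.25 ± 0.19 in lethal KD and was not called.

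The ammonium transporter gene taken as AMT1-2 (LOC4330008) had the largest difference of the 30 genes in size. RefSeq lists LOC4330008 also as AMT1-3, and its direct neighbour LOC4330007, without a probe set here, carries both names too. AMT1-2 of rice is known to be expressed in roots and induced by ammonium, and which name fits LOC4330008 was not checked. This gene stood at 2.81 and 2.55 in lethal KD, at 4.90 and 5.08 in wild-type-like KD and at 5.78 and 5.99 in pANDA. Lethal KD arrays were at the floor, and the 3 groups did not overlap. AMT1-2 was at least 7.72-fold lower in lethal KD than in pANDA (log2 difference -3.21 ± 0.17 SE, adjusted p = 0.0004435) and at least 4.13-fold lower than in wild-type-like KD (-2.31 ± 0.17, adjusted p = 0.001317). The second call was lost in a fit of the 4 arrays of both knock-downs (adjusted p = 0.06212). Between wild-type-like KD and pANDA the difference was -0.90 ± 0.17, which was not called (adjusted p = 0.2698). OE stood at 3.77 and 3.43 against 3.61 and 3.89 in B4NU, and these overlapped. In whole seedlings, fewer cells of a type and less RNA per cell cannot be told apart. Of 13 root markers, described further on, 5 were also called lower in lethal KD, and their part in the fall of AMT1-2 and PT2 was not tested.

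AMT3-2 (LOC4334717), a further ammonium transporter gene, went the other way in the lethal knock-down. Lethal KD arrays stood at 7.12 and 6.36, against 4.57 and 5.11 in wild-type-like KD and 5.04 and 4.86 in pANDA, and did not overlap either group. It rose 3.74-fold relative to wild-type-like KD (log2 difference 1.90 ± 0.42 SE, adjusted p = 0.04455). The difference of 1.79 ± 0.42 from pANDA narrowly missed the threshold (adjusted p = 0.05088). The call between the knock-downs was lost without any single B4NU, lethal KD, wild-type-like KD or pANDA array (adjusted p = 0.05443 to 0.1612), while the difference from pANDA was called without either OE array (adjusted p = 0.02762) and without both arrays that stood apart (adjusted p = 0.01808). OE stood at 4.91 and 5.89 against 5.19 and 5.03 in B4NU, and these overlapped. Its probe set is of the type that may share probes with related sequences.

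AMT1-1 (LOC4336365), an ammonium transporter gene expressed in roots and shoots, was not called in any comparison. OE arrays stood at 3.91 and 4.96, both below 5.74 and 5.64 in B4NU, with a difference of -1.25 ± 0.41 (adjusted p = 0.3869). Lethal KD was at 5.99 and 5.16, wild-type-like KD at 4.97 and 4.97 and pANDA at 5.97 and 5.97. Lethal KD thus overlapped pANDA, and wild-type-like KD differed from it by -1.01 ± 0.41 (adjusted p = 0.9785). Without both arrays that stood apart AMT1-1 was called in OE (-0.73, adjusted p = 0.01145) and in wild-type-like KD (-1.01, adjusted p = 0.02888). AMT2-1 (LOC4339064) ranged from 3.88 to 5.13 over the 10 arrays, and its groups overlapped in each of the 4 comparisons. AMT2-3, near the floor throughout, ranged no higher than 2.96 and was not called.

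Of the nitrate genes, NAR2.2 (LOC4336175), a partner protein of NRT2 transporters, was above the floor in OE and B4NU, at 3.27 and 3.05 in OE against 2.96 and 2.75 in B4NU. That difference of 0.30 ± 0.09 was not called (adjusted p = 0.3433). Its 6 arrays of the other set lay between 2.62 and 2.67, at the floor. No other nitrate gene was above the floor in any group.

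Of the 3 genes taken by name whose products are not clearly transporters, GRF4 (LOC4330436), which in rice promotes nitrogen assimilation and growth, was the one called against pANDA in both knock-downs. It stood at 3.93 and 3.92 in lethal KD, 4.40 and 4.50 in wild-type-like KD and 5.0 and 4.91 in pANDA, and the 3 groups did not overlap. It was 2.04-fold lower in lethal KD than in pANDA (log2 difference -1.03 ± 0.05 SE, adjusted p = 0.0002577) and 1.44-fold lower than in wild-type-like KD (-0.53 ± 0.05, adjusted p = 0.002099). It was 1.42-fold lower in wild-type-like KD than in pANDA (-0.50 ± 0.05, adjusted p = 0.03335), a call lost without any single OE, B4NU or lethal KD array (adjusted p = 0.05574 to 0.1118). The wild-type-like call and that between the knock-downs were also lost with quantile normalization (adjusted p = 0.8742 and 0.1091). Both were lost with each array centred (adjusted p = 0.9891 and 0.09549) and with brighter probe sets only (adjusted p = 0.6309 and 0.05765). In a fit of the 4 arrays of both groups neither was called (adjusted p = 0.3182 and 0.08544). OE stood at 4.42 and 4.47 against 4.35 and 4.40 in B4NU, a difference of 0.07 ± 0.05 (adjusted p = 0.65). PHT3 and HCT3 were not called in any comparison. PHT3 was above the floor in B4NU and pANDA, and stood at 2.45 and 2.44 in lethal KD, 2.46 and 2.60 in wild-type-like KD and 2.97 and 2.90 in pANDA. HCT3 stood at 2.51 and 3.08 in lethal KD, 3.08 and 3.08 in wild-type-like KD and 3.36 and 3.22 in pANDA.

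Genes that act on the nitrogen once it is inside the cell were looked at beside the transporters. In lethal KD, a nitrate reductase gene, genes of plastid ammonium assimilation and a cytosolic glutamine synthetase gene were among those that fell relative to pANDA. Another cytosolic glutamine synthetase gene, a nitrate signalling gene and a mitochondrial enzyme gene rose. Of 18 genes taken by symbols of nitrogen assimilation and signalling 8 were called (44.4%), 3 higher and 5 lower, where 26.2% of all genes were called, 14.5% higher and 11.7% lower. Their median difference was -0.01 beside 0.018 over all genes. Of the 18, AS2 and GLU1 also carry names of other genes (LBD6 and CEL9D) and may not act on nitrogen. Neither was called in any comparison, and without these 2 the count was 8 of 16 (50.0%) and the median -0.01. The plastid glutamine synthetase gene GLN2 stood at 5.60 and 6.31 in lethal KD, against 10.01 and 9.88 in pANDA, and fell by 3.99 ± 0.26 (log2, SE; adjusted p = 0.0007123). GLT2, which encodes an NADH-dependent glutamate synthase, was at the floor in lethal KD and at least 8.66-fold lower than in pANDA (adjusted p = 0.002151). NIA1, a nitrate reductase gene, fell by 3.14 ± 0.35 (adjusted p = 0.004293). The other 2 that fell, outside the largest 3 and named after their values were seen, were the ferredoxin-dependent glutamate synthase gene FD-GOGAT (-2.46 ± 0.45, adjusted p = 0.02334; lost without any single B4NU, wild-type-like KD or pANDA array or lethal KD replicate 2, adjusted p = 0.05791 to 0.1048) and the cytosolic glutamine synthetase gene GLN1-2 (-1.61 ± 0.13, adjusted p = 0.001698).

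The 3 nitrogen genes that rose in lethal KD were GLN1-3, NLP1 and GDH2. GLN1-3, a cytosolic glutamine synthetase gene, stood at 4.87 and 5.48 in lethal KD, against 2.67 and 2.71 in pANDA at the floor, at least 4.70-fold higher (adjusted p = 0.002631). NLP1, a transcription factor gene of nitrate signalling, rose by 1.80 ± 0.28 (adjusted p = 0.01275; lost without either lethal KD array or pANDA replicate 2, adjusted p = 0.05117 to 0.07269), and GDH2, a mitochondrial glutamate dehydrogenase gene, rose by 1.22 ± 0.12 (adjusted p = 0.002554). No gene of this list was called between wild-type-like KD and pANDA, where 3 of 18 were at the floor in both groups. Between lethal KD and wild-type-like KD 7 of 18 were called (38.9%), 2 higher and 5 lower, beside 23.8% of all genes, 13.6% higher and 10.2% lower. In OE 2 of 18 were called (11.1%), both lower, beside 2.88% of all genes, with 2.33% lower. GLT2 stood at 3.42 and 4.46 in OE, against 6.50 and 6.53 in B4NU, and fell by 2.58 ± 0.32 (adjusted p = 0.03264), a call lost without any single B4NU, KD or pANDA array (adjusted p = 0.07832 to 0.1194). The other was the urea transporter gene DUR3, at the floor in both groups, with a difference of -0.06 ± 0.01, and its call was lost without OE replicate 1 or any single B4NU, wild-type-like KD or pANDA array (adjusted p = 0.05802 to 0.1382). The list's median in OE was -0.36 beside -0.053 over all genes, with 15 of 18 differences negative, and -0.06 with 9 of 18 negative when each array was centred on the median of its brighter probe sets. Without AS2 and GLU1 the median was -0.22, with 13 of 16 differences negative.

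**Figure D3:**
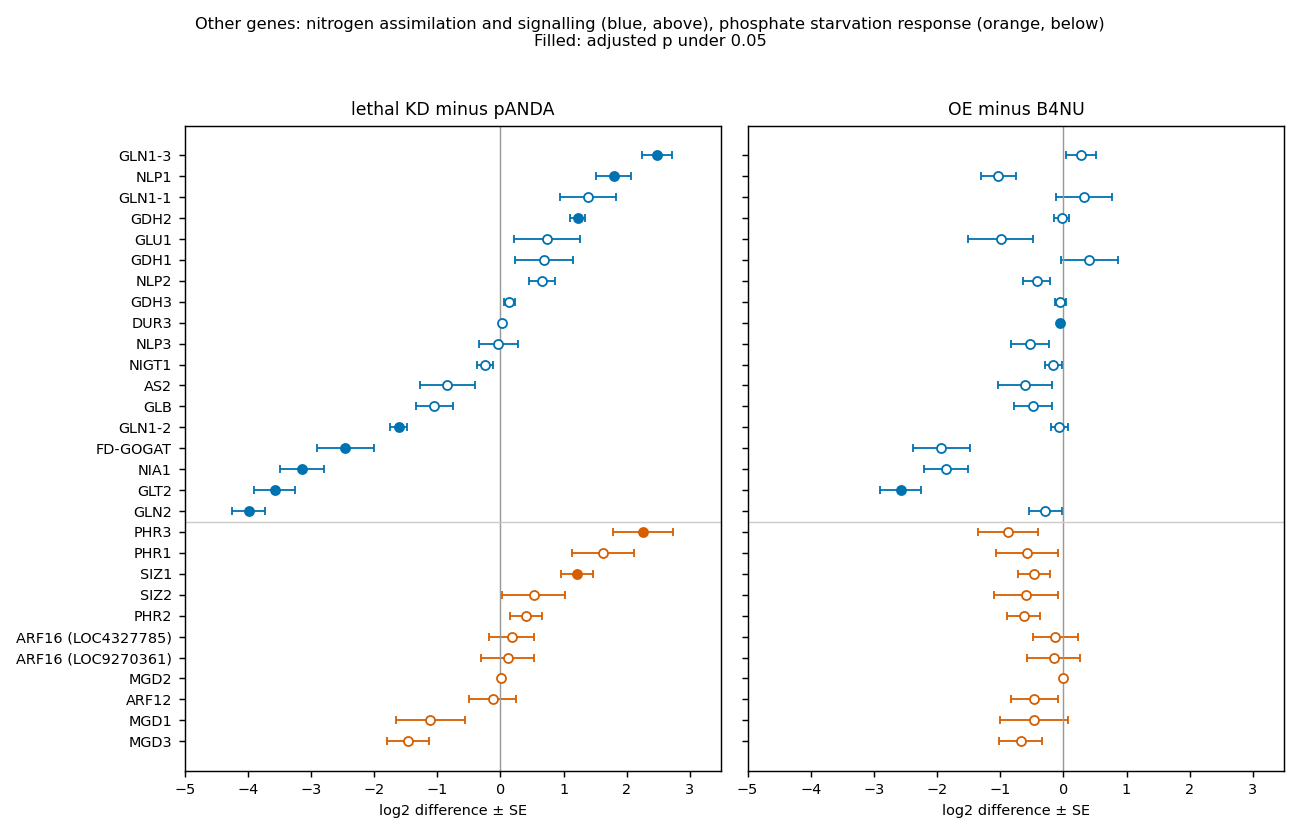
Log2 difference with its standard error (horizontal axis) of 18 genes taken by nitrogen symbols (blue, upper part) and 11 phosphate response genes (orange, lower part; vertical axis) in lethal KD minus pANDA and OE minus B4NU, with filled points where limma's adjusted p was under 0.05. GLN2 lies farthest to the left in lethal KD, at -3.99. The 11 phosphate genes all lie below 0 in OE without a filled point, though 3 of them lie above 0 when arrays are centred. ARF12, MGD1, PHR1 and both ARF16 genes stood above both B4NU arrays on OE replicate 2.

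Of 11 other phosphate response genes, 2 were called in lethal KD against pANDA (18.2%), both higher, with a median of 0.18, where 26.2% of all genes were called, 14.5% higher. The list was PHR1, PHR2, PHR3, SIZ1, SIZ2, ARF12, MGD1, MGD2, MGD3 and the ARF16 genes, with MGD2 at the floor in every group. Other symbols looked for, among them IPS1, SQD2, PAP10 and PHO2, matched no measured gene. The list thus covers only part of the phosphate starvation response. The list holds 2 genes with the symbol ARF16, of which neither was called in any comparison, and without them 2 of 9 were called (22.2%), with a median of 0.40. PHR3, a transcription factor gene of the PHR family that SPX proteins hold back, stood at 6.72 and 6.78 in lethal KD, against 4.63 and 4.34 in pANDA, and rose by 2.26 ± 0.48 (adjusted p = 0.0376). SIZ1, a SUMO ligase gene, rose by 1.21 ± 0.25 (adjusted p = 0.03607). The call of PHR3 was lost without any single B4NU, lethal KD, wild-type-like KD or pANDA array (adjusted p = 0.08259 to 0.1674), and that of SIZ1 without any of these but lethal KD replicate 2 (adjusted p = 0.05293 to 0.1521). None of the 11 was called between wild-type-like KD and pANDA or between the knock-downs. In OE none was called, while all 11 had a negative difference and the median was -0.47 beside -0.053 over all genes. With each array centred on the median of its brighter probe sets, which moved OE minus B4NU by 0.30, 8 of the 11 differences were negative and the median was -0.17. On OE replicate 1 PHR3 stood at 4.29, against 5.80 on OE replicate 2 and 6.04 and 5.79 in B4NU. ARF12, MGD1, PHR1 and both ARF16 genes stood below both B4NU arrays on OE replicate 1 and above both on OE replicate 2. Their negative differences thus come from OE replicate 1, which stood apart. MGD3, PHR2 and SIZ1 lay below both B4NU arrays on each OE array.

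Root and shoot markers moved with lethal KD. The log2 of the summed signal of 13 root markers was 6.85 to 6.98 in lethal KD, against 10.87 to 10.90 in wild-type-like KD and 11.04 to 11.05 in pANDA. The sum is weighted to its brightest genes, LSI1, NAS1, LSI2 and NAS2, with pANDA means of 9.72, 8.93, 8.47 and 8.07. The markers QHB, SCR1 and SHR1 were at the floor in lethal KD, wild-type-like KD and pANDA, so the sum does not measure the amount of root tissue. Of these genes 8 were at the floor in lethal KD, among them the nicotianamine synthase genes NAS1 and NAS2 and the Casparian strip gene CASP1, which were above it in pANDA. CASP1 stood at 2.51 and 2.86 in lethal KD, against 4.16 and 3.59 in pANDA, and was not called. NAS1 was at least 63.4-fold lower in lethal KD than in pANDA and NAS2 at least 34.9-fold (adjusted p = 0.000687 and 0.000211), and the silicon exporter gene LSI2 fell by 5.29 ± 0.50. In all 5 root markers fell and 1 rose, beside 26.2% of all genes called. The one that rose (LOC4332972) was taken for the iron regulator gene IRO2 by a synonym, but RefSeq also lists it as IRO3 and BHLH063, and without it 5 of 12 root markers were called, all lower. The sum of 14 shoot markers was 12.08 to 12.20 in lethal KD, against 14.74 in wild-type-like KD and 14.69 in pANDA. Of the 14, 8 were called lower (57.1%), where 11.7% of all genes were, and RBCS, the Rubisco small subunit gene, fell by 4.12 ± 0.09. Within the transport genes PT2 and AMT1-2 fell with these markers, while PHT1-4, PHO1-2 and AMT3-2 stood higher and PHT1-1, known from roots and shoots, differed by -0.04 ± 0.21 from pANDA. In OE the root sum was 10.21 to 11.03, against 10.74 to 10.82 in B4NU, and the shoot sum 14.14 to 14.42, against 14.75 to 14.78. Of the 13 root markers LOC4332972 rose in OE and the silicon transporter gene LSI1 fell, and of the 14 shoot markers GLK1 and RBCS fell. Of all genes 2.88% were called there, 0.542% higher and 2.33% lower. The call of LOC4332972 was lost in a fit of the 4 OE and B4NU arrays (adjusted p = 0.147) and with array weights (adjusted p = 0.1452). The calls of LSI1, GLK1 and RBCS in OE were each lost without any single B4NU, lethal KD or pANDA array (adjusted p = 0.0513 to 0.1526). The part of the markers in the differences of the transport genes was not tested.

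**Figure D4:**
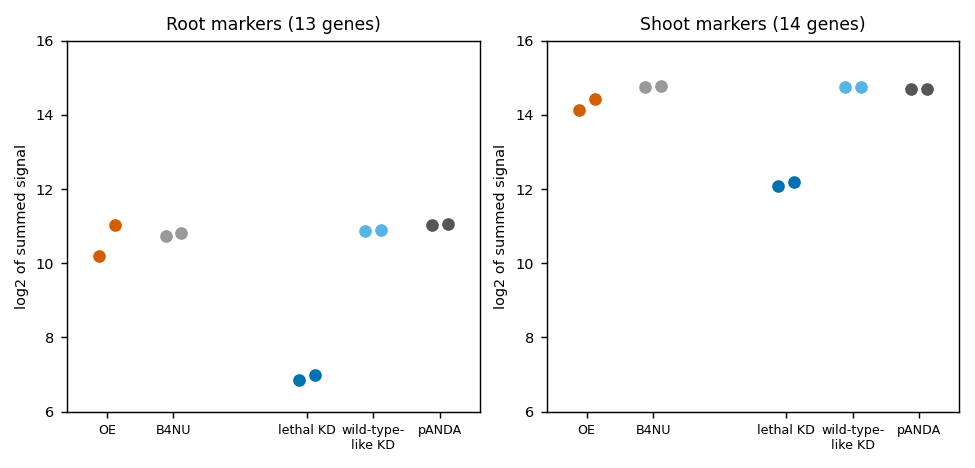
Log2 of the summed signal (vertical axis) of the root and shoot markers by group (horizontal axis), with a point for each array. Lethal KD lies at 6.85 to 6.98 for root markers and 12.08 to 12.20 for shoot markers, below every other array of its set. The root sum is weighted to LSI1, NAS1, LSI2 and NAS2.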

How the data were processed

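The authors deposited 1 table of probe set values for 10 arrays. The submitters' processing notes name GCOS and version 1.4.1.46 of Affymetrix Expression Console. The summarization of probes and the normalization were not given in the sources used here. The range of the deposited values shows a log2 scale. Of 57381 probe sets 123 controls were left out. Platform annotation paired 22436 of the 57258 tested with 1 gene, 95 with several and 34727 with none. The probe set with the highest mean stood for its gene, and symbols came from RefSeq assembly ASM3414082v1.

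A linear model with a coefficient per group was fitted to all 10 arrays in R 4.3.3 with limma 3.58.1 (lmFit, then eBayes with no trend, two-sided, 5 residual degrees of freedom) and tested on simulated data. Each probe set thus has 1 spread over all groups. Calls needed a Benjamini-Hochberg adjusted p under 0.05 over all 57258 probe sets. The labels call the replicates biological, and their numbers did not pair the arrays. OE was assigned B4NU as its control, and the knock-downs pANDA. A fold against a group at the floor is a lower bound, taken against the top of the floor.

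Members, lists and the pairing of vectors were chosen with earlier results of these data known. Genes named were those called in at least 1 comparison, those that differed by 1 or more without overlap, and of each list the called genes with the largest 3 differences each way. Alternatives changed normalization, centring, the dim filter, the model of the spread, the arrays fitted, array weights, the replicate block, the probe set and the call rule. A planned search of promoters for motifs was not run, as no sequences were used here.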

Additional observations from a re-analysis of the deposited data

Results flagged for a closer look

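The effect of the knock-down against pANDA differed between lethal KD and wild-type-like KD seedlings, by limma's test of that difference itself, for 6 of the 30 genes taken by name. Given as lethal KD minus wild-type-like KD on the log2 scale, it was -2.31 for AMT1-2, -0.87 for PT2 and -0.53 for GRF4, and 1.90 for AMT3-2, 1.31 for PHO1-2 and 0.73 for PHT1-4. Of all genes 23.8% passed the same test. In a fit of the 4 arrays of both groups the calls of AMT1-2, PT2 and GRF4 were lost (adjusted p = 0.06212, 0.1112 and 0.08544). Those of AMT3-2 and PHO1-2 were lost there too (adjusted p = 0.2376 and 0.3016). For AMT1-2, PT2 and GRF4 both differences from pANDA were negative, with that of lethal KD farther from 0.

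Among the nitrogen assimilation and signalling genes the difference was -4.17 for GLN2, -3.23 for NIA1, -3.21 for GLT2, -2.52 for FD-GOGAT and -0.83 for GLN1-2, and 2.57 for GLN1-3 and 1.67 for NLP1. The call of FD-GOGAT was lost with a replicate block (adjusted p = 0.05436). It was also lost without any single B4NU, wild-type-like KD or pANDA array and without lethal KD replicate 2. In a fit of the 4 arrays of both groups those of FD-GOGAT, GLN2 and GLN1-3 were lost (adjusted p = 0.1276, 0.07728 and 0.1093). The calls of GLN1-2 and NLP1 were lost without any single array of either knock-down, and that of NLP1 also without either B4NU array. GDH2, called in lethal KD against pANDA, was not called between the knock-downs. With 2 arrays per group no array was tested as an outlier of its group.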

How the results depend on the processing

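Alternatives were run for 17 differences of the 30 genes taken by name, GRF4 among them, those called or of 1 or more without overlap. None of these 17 changed sign, with 270 results on the same side of the threshold, 67 that lost a call and 17 that gained one. AMT1-2, PT2 and GRF4 kept their calls in lethal KD against pANDA in 21 of 21 alternatives, PHT1-4 in 18 of 20 and PHO1-2 in 8 of 21. PHO1-3, at the floor, was called in OE with both signs, at 0.08 without OE replicate 1 and -0.11 without OE replicate 2, against -0.02 with all arrays. The share of all probe sets called is given in parentheses. With all arrays it ran below the share of genes, which is the like measure for these counts. In lethal KD against pANDA 12.2% of probe sets but 26.2% of genes were called. The parentheses thus show how far calling moved, and whether a count exceeds its background cannot be read from them. The count of genes called in OE, 1 of 30 (1.4%), was 4 with each array centred (5.14%), 0 with the arrays of the set alone or the 4 arrays of both groups alone (0.0297% each), with array weights (0.145%) or at 2-fold or more (0.938%), 5 without OE replicate 1 and lethal KD replicate 2, which stood apart (6.99%), and 1 to 8 without single arrays, the 8 without OE replicate 2 (22.3%) and 3 without OE replicate 1 (4.62%). In lethal KD against pANDA, 5 (12.2%) became 10 without both arrays that stood apart (22.0%) and lay between 4 and 7 without single arrays (8.54 to 16.7%). In wild-type-like KD, 1 (0.243%) became 0 with quantile normalization (0.382%), centring (0.533%), brighter probe sets alone (0.221%), the set alone (0.145%) or 2-fold or more (0.0856%), 2 without both arrays that stood apart (0.402%), and 0 to 3 without single arrays (0.117 to 4.16%). Between the knock-downs, 6 (11.2%) became 2 with 4 arrays (2.08%), 10 without both arrays that stood apart (21.6%), 3 at 2-fold or more (8.40%) and 3 to 7 without single arrays (7.65 to 15.6%), the 3 without wild-type-like KD replicate 2. The cause was not tested. Lists without symbols shared with other genes were an alternative chosen after seeing the data. With centring SPX4 and AMT1-1 were called in OE (-0.90 and -0.95), and the difference of DUR3 in OE turned to 0.24. Centring moved the arrays by -0.19 to 0.43. Where an array is left out, its partner is assumed to vary like the other groups.

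Replicate numbers did not pair the arrays (correlations of deviations between groups of -0.573 to 0.31). With a replicate block 1 gene was called in OE (0.739%), 4 in lethal KD (10.0%), 0 in wild-type-like KD (0.0856%) and 5 between the knock-downs (9.0%). Signal near the floor limits the calls, as 13 of 30 genes had no group above it.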
